A study of Mus musculus with 16 samples.

Results

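The genes described here, a set named by function with earlier results of these data known, are 42 genes of ferroptosis, iron handling and glutathione defence. They are among 21770 protein-coding genes of the mouse annotation. They were followed in 8 lists of m6A peaks, each from 1 MeRIP-seq IP library of peri-infarct cerebral cortex of the mouse, in which an antibody against m6A pulls down RNA fragments and a peak is a stretch of transcript enriched over the input. Male C57BL/6J mice aged 6 to 8 weeks were operated on. In the MCAO/R groups a nylon thread closed the middle cerebral artery for 2 h and tissue was taken after 0, 6 or 24 h of reperfusion, and Sham mice had the same surgery without the thread, with 2 IP lists per group. No transgene was involved. The records do not say whether a library came from 1 mouse or from a pool.

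Ferroptosis is a form of cell death in which iron-driven peroxidation destroys membrane lipids. Cells hold it back by importing cystine for glutathione, which the peroxidase GPX4 spends on lipid peroxides, and by storing or exporting free iron. In brain tissue cut off from blood and then reperfused, iron and lipid peroxides are known to build up. Iron genes are also a classic case of control at the mRNA: the iron regulatory proteins bind a stem-loop, the iron-responsive element, in the untranslated regions (UTRs) of their transcripts.

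A gene is called marked in a list when at least 1 exonic base of it lay in a peak on its strand. Overlapping peaks of the 8 lists were joined into regions, which are numbered along each transcript from 5' to 3'. The lists give each peak a score on an undefined scale, so only its percentile was used, the share of the peaks in the same list with a lower score. This is a rank and not a methylation level. The tissue is a mixture of cells, so fewer cells of a type and less RNA per cell cannot be told apart, and RNA abundance was not measured here because the input libraries were not analysed.

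The sequences below come from the 6 regions of these genes found in all 8 lists and from some of those found in 6 or 7. The consensus around m6A is RRACH, where R is A or G and H is A, C or T. Each line gives the RRACH site of the region that the largest number of lists covered, from 3 lists for Bach1 region 4 to 8 for Ireb2 region 1. It is on the transcript strand from 5' to 3' with the 5 motif bases in capitals. The coordinates on GRCm39 are those of the printed bases. All were read from GENCODE M39 transcripts. The peaks do not resolve which base was methylated.
Slc7a11 region 1 (3' UTR, chr3:50326671-50326691, minus strand): tttcaagaAAACAcaacgttg
Pcbp1 region 1 (5' UTR, chr6:86503148-86503168, minus strand): ccccgcccAGACCgccgaggc
Ireb2 region 1 (end of the coding sequence, chr9:54816990-54817010, plus strand): ggcttattAAACTttgtggct
Nfe2l2 region 4 (coding sequence, chr2:75506575-75506595, minus strand): gccgcccaGAACTgtaggaaa
Keap1 region 7 (3' UTR, chr9:21141900-21141920, minus strand): aaagaagaAAACAaagcataa
Bach1 region 1 (coding sequence, chr16:87516225-87516245, plus strand): gccaaatgAGACCtctgaact
Bach1 region 4 (coding sequence, chr16:87516979-87516999, plus strand): tctgagacGGACAcggaaggt
Bach1 region 7 (3' UTR, chr16:87527393-87527413, plus strand): ccttgtctAGACTgttaggaa
Slc39a14 region 1 (3' UTR, chr14:70544073-70544093, minus strand): gtggcattGGACAtcgggctc

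The form of the motif that m6A writers are known to favour most is GGACT. Of the regions found in 6 or more lists, those of Slc7a11, Gss, Slc11a2, Slc39a14, Nfe2l2 and Bach1 held it. Not every list that held a region covered its site. The sites printed for Slc7a11, Gss and Nfe2l2 were each covered in 5 lists, and that for Slc39a14 in 6. Sham peaks of Nfe2l2 region 4 lay between -624 and -125 nt from the stop codon, so its printed site was covered in MCAO/R lists only. For each of 4 of these genes 1 site follows, with the same layout.
Slc7a11 region 1 (3' UTR, chr3:50326653-50326673, minus strand): ttgatgatGGACTaaaggaat
Gss region 1 (coding sequence, chr2:155423861-155423881, minus strand): gtgcagatGGACTtcaacata
Slc39a14 region 1 (3' UTR, chr14:70544033-70544053, minus strand): cggcccgaGGACTcagcatcc
Nfe2l2 region 4 (coding sequence, chr2:75507170-75507190, minus strand): cctggacgGGACTattgaagg
In windows reaching 50 nt to either side of the region centres, counted on the transcript strand only, 46 of 62 member regions (74.2%) held RRACH, against 81.8% of 43214 regions of all genes, and 12.9% held GGACT against 13.1%. Of the 6 member regions found in all 8 lists, 4 (66.7%) held RRACH in this window, against 89.0% of all regions in 8 lists. A printed site can thus lie outside the window.

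Of the 42 genes, 25 (59.5%) were marked in at least 1 list, and 17 in none. Of all protein-coding genes, 51.8% were marked in at least 1 list. The 6 genes marked in every list were Slc7a11, Pcbp1, Ireb2, Nfe2l2, Keap1 and Bach1, or 14.3% of the set against 18.5% of all coding genes. The 25 genes held 211 peaks, none of which overlapped an exon of a second gene, in 67 regions. Of the 67 regions, 6 (8.96%) were found in all 8 lists and 34 (50.7%) in 1 list only, close to the 8.97% and 52.6% of all 52776 regions. Nfe2l2, Keap1 and Bach1, the NRF2 transcription factor, its inhibitor and its competitor on DNA, held 98 of the 211 peaks (46.4%).

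By role, genes marked in at least 1 list were counted, as 51.8% of all coding genes were. All 5 genes of cystine import and glutathione and all 5 of haem and NRF2 were marked, as were both iron sensors. Some of these rest on little: Hmox1 and Hmox2 had 1 peak each, and the 3 peaks of Aco1 were each in 1 list. Marks were found on 4 of 7 genes of iron storage, chaperones and export, 2 of 5 of iron uptake, 2 of 4 of the mitochondrial outer membrane and 2 of 3 of p53 and its targets. The enzymes that act on lipids had marks on 2 of 6, and direct peroxide and radical defence on 1 of 5. With so few genes per role, these counts were not compared by a test. The heat map by gene and list shows the number and rank of the peaks.

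**Figure D1:**
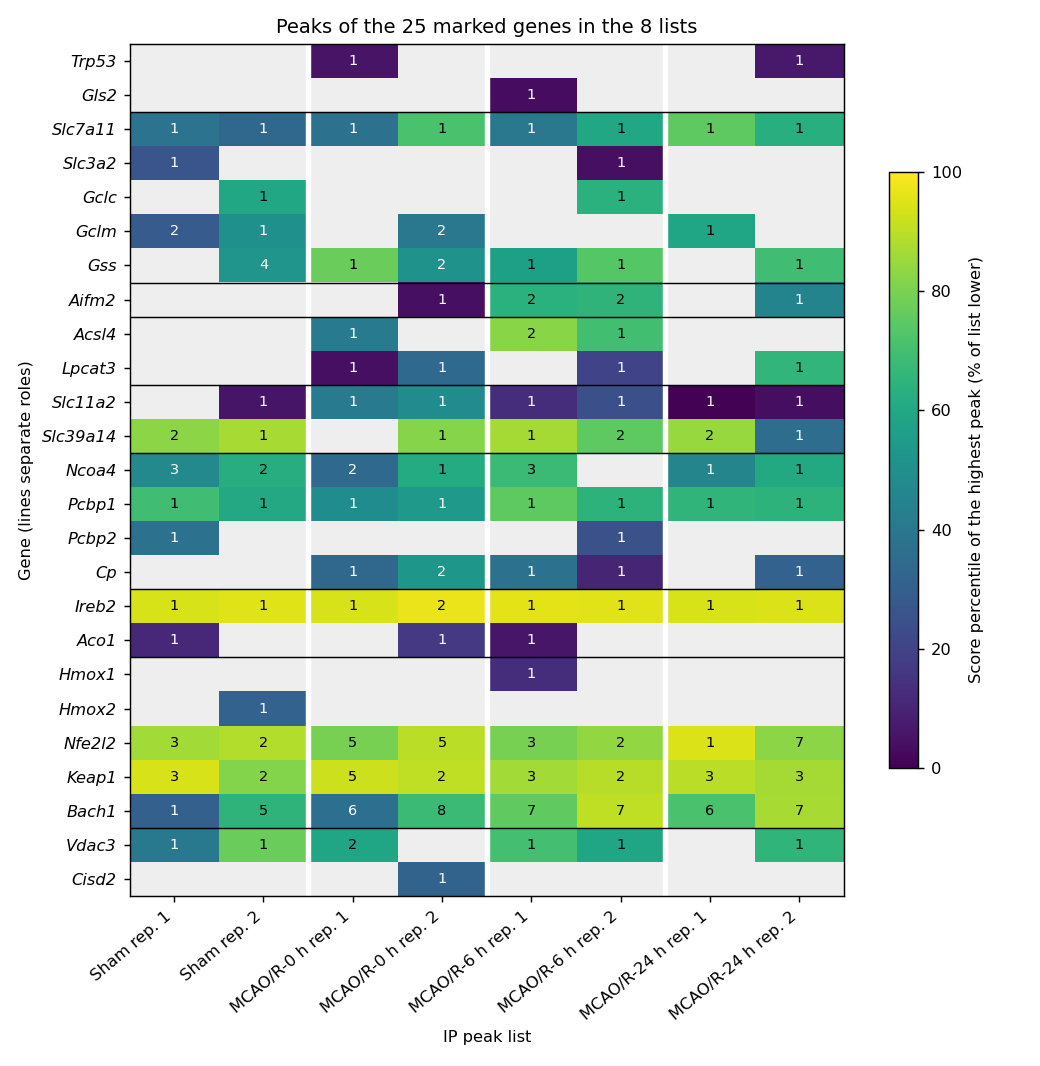
Peaks of the 25 marked genes (rows, ordered by role) in the 8 IP lists (columns). The number is the count of peaks and the colour the score percentile of the highest peak (percent of the list with a lower score), with grey for no peak. Ireb2, Nfe2l2 and Keap1 have a high-ranking peak in every list, from 79.5 to 96.9, while Aifm2, Acsl4, Lpcat3 and Cp have none in the Sham lists.

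The genes without any peak were Sat1, Gpx4, Gch1, Dhodh, Nqo1, Alox5, Alox12, Alox15, Por, Tfrc, Slc39a8, Steap3, Fth1, Ftl1, Slc40a1, Vdac2 and Cisd1. They include the central ferroptosis brake Gpx4 and the proteins that a cell uses to take in, store and export iron: the transferrin receptor Tfrc, the ferritin subunits Fth1 and Ftl1 and the exporter ferroportin, Slc40a1. Their transcripts ran from 969 to 6013 nt with a median of 2671 nt, against 3446 nt for the marked genes and 2933.5 nt for all coding genes. Since the lists hold only called peaks, no upper limit on methylation can be given for them.

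Several of these unmarked iron genes carry the best known RNA regulatory elements of the set, which is why they are shown. UTRs of coding transcripts were searched, on the transcript strand, for a C and 5 further bases before the loop CAGTGN and 5 bases after it, where the 5 bases on each side pair with at most 1 mismatch. All 25 printed bases are given in each line, with the loop in capitals.
Fth1 5' UTR (chr19:9960098-9960122, plus strand): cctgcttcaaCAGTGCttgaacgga
Ftl1 5' UTR (chr7:45109205-45109229, minus strand): cttgcttcaaCAGTGTttgaacgga
Slc40a1 5' UTR (chr1:45964627-45964651, minus strand): acttcagctaCAGTGTtagctaagt
Tfrc 3' UTR (chr16:32450039-32450063, plus strand): ttatcggaagCAGTGCcttccataa
Slc11a2 3' UTR (chr15:100293036-100293060, minus strand): ccatcagagcCAGTGTgtttctatg
A match was found in 7 of the 42 genes (16.7%) and in 5.66% of 21474 coding genes searched. Without a mismatch it was found in Fth1, Ftl1, Slc40a1 and, at 4 places, in Tfrc, which is 9.52% of the 42 genes against 0.810% of all. None of these 4 genes had a peak in any list. Iron genes known for this element were part of the set by choice, so the higher shares of the set were fixed by that choice. Slc11a2, the iron importer DMT1, had a match with 1 mismatch in the element known from its iron-regulated isoform, 869 nt from the nearest of its peaks on the same 3' UTR. The other matches with 1 mismatch were in the 3' UTRs of Bach1, 21 nt from a peak, and of Cisd2.

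Along the transcripts, 48.8% of the 211 member peaks were centred in the coding sequence, 45.5% in the 3' UTR and 5.69% in the 5' UTR, against 58.3%, 36.1% and 5.54% of 152776 peaks of all coding genes. Within 200 nt of the stop codon lay 28.9% of the member peaks and 20.6% of all. These 61 peaks came from 13 genes, with 9 from Keap1 and 8 each from Slc7a11, Slc39a14 and Ireb2. Peaks of 1 gene share a target, so the shares describe these genes and carry no test. The median percentile of the member peaks was 48.8, and 6.16% of them lay at or above the 90th percentile, against 10.00% of all peaks. Of these 13 top-ranking peaks, 8 belonged to Ireb2, 3 to Keap1, and 1 each to Nfe2l2 and Bach1.

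Slc7a11 codes for the light chain of the cystine and glutamate exchanger, the entry point of glutathione synthesis. Its only region (chr3:50326540-50332036, spanning the last intron) was centred 39 nt after the first base of the stop codon. The percentiles were 38.1 and 33.8 in Sham, 37.4 and 71.3 in MCAO/R-0 h, 40.2 and 59.7 in MCAO/R-6 h, and 75.3 and 62.8 in MCAO/R-24 h. Both MCAO/R-6 h and both MCAO/R-24 h lists ranked it above both Sham lists, while the MCAO/R-0 h values overlapped those of Sham. Over all regions in 8 lists, limma on the normal score of the rank gave a difference of 0.87 ± 0.35 (SE) for MCAO/R-24 h minus Sham (adjusted p = 0.60), so the difference did not pass the threshold.

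The rest of the glutathione arm was marked in fewer lists. Gss, glutathione synthetase, had a coding region in 6 lists, at 52.0 in Sham replicate 2, at 77.3 and 50.8 in MCAO/R-0 h, then at 57.0 and 73.8 in MCAO/R-6 h, with 69.4 in MCAO/R-24 h replicate 2. Replicate 1 of Sham and of MCAO/R-24 h listed nothing there. Gclm, the modifier subunit of glutamate-cysteine ligase, was marked in both Sham lists, in MCAO/R-0 h replicate 2 and in MCAO/R-24 h replicate 1, with 6 peaks at 19.4 to 59.0. The catalytic subunit Gclc and the exchanger's heavy chain Slc3a2 were each marked in 2 lists, Sham and MCAO/R-6 h, with percentiles of 60.1 and 63.9 for Gclc and of 26.5 and 4.09 for Slc3a2.

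Ireb2 codes for iron regulatory protein 2, the sensor that binds iron-responsive elements when iron is scarce. Its first region (chr9:54816108-54817335) straddled the stop codon and was centred 13 nt after the first base of the stop codon. The percentiles were 93.8 and 95.3 in Sham, 94.0 and 96.9 in MCAO/R-0 h, 96.0 and 95.4 in MCAO/R-6 h, and 94.1 and 94.7 in MCAO/R-24 h. It was the highest-ranking region of the 42 genes in 6 of the 8 lists, and the groups overlapped. The differences from Sham on the normal score were 0.10, 0.11 and -0.02, each with an SE of 0.25 (limma, adjusted p from 0.934 to 0.992). The other sensor, Aco1, which is the aconitase form of iron regulatory protein 1, had 3 peaks at 3 places, each in 1 list, with percentiles of 6.14 to 16.6.

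Among the iron chaperones, the cytosolic carrier Pcbp1 had a region in its 5' UTR in all 8 lists (chr6:86502999-86503248), although 5' UTRs held few peaks in general. The percentiles were 69.4 and 60.2 in Sham, 48.5 and 53.6 in MCAO/R-0 h, 75.0 and 64.8 in MCAO/R-6 h, and 65.6 and 64.8 in MCAO/R-24 h. The MCAO/R-0 h lists ranked it below the others without overlap, by a normal score of -0.36 ± 0.25 (SE) against Sham that did not pass the test (limma, adjusted p = 0.881). Its relative Pcbp2 was marked in Sham replicate 1 and MCAO/R-6 h replicate 2 only, at 37.4 and 24.7, in a 3' UTR outside the transcript with the longest coding sequence.

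Ncoa4, the receptor that delivers ferritin to autophagosomes and so frees iron, had 13 peaks in 5 coding regions and was marked in 7 lists. Its most shared region, region 4 (chr14:31898474-31898748), was in 5 lists, at 47.1 and 62.4 in Sham, 13.5 in MCAO/R-0 h replicate 1, 68.3 in MCAO/R-6 h replicate 1 and 60.6 in MCAO/R-24 h replicate 2. Region 3, upstream in the same exon, was in Sham replicate 2 at 35.2, in both MCAO/R-0 h lists at 34.3 and 61.7 and in MCAO/R-6 h replicate 1 at 56.6. The counts of peaks were 3 and 2 in Sham, 2 and 1 in MCAO/R-0 h, 3 and 0 in MCAO/R-6 h, and 1 and 1 in MCAO/R-24 h. The MCAO/R-6 h replicates thus lay at either end of this range, the upper end shared with Sham replicate 1, and the 2 MCAO/R-24 h peaks lay in different regions. No region of Ncoa4 was in both lists of a reperfusion time and absent from Sham, or the reverse.

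Iron import through Slc39a14 (ZIP14) and Slc11a2 stood at different ranks. Slc39a14 had a region around its stop codon (chr14:70543893-70546129) at 82.5 and 87.1 in Sham, 81.7 in MCAO/R-0 h replicate 2, then 86.7 and 75.2 in MCAO/R-6 h, with 84.4 in MCAO/R-24 h replicate 1. Where it was listed, its rank was alike in all groups. The Slc11a2 region in the 3' UTR (chr15:100291905-100292179) was in 6 lists at lower percentiles, 5.82 in Sham replicate 2, 40.8 and 48.4 in MCAO/R-0 h, then 13.1 and 24.4 in MCAO/R-6 h, with 0.425 in MCAO/R-24 h replicate 1. Both MCAO/R-0 h lists ranked it above every other list that held it.

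NRF2, the product of Nfe2l2, switches on many antioxidant and iron genes, KEAP1 holds it for degradation, and BACH1 represses the same targets until haem displaces it. The main Nfe2l2 region, region 4, lay in the last coding exon (chr2:75506407-75507381). Its percentiles were 86.1 and 88.3 in Sham, 79.5 and 89.5 in MCAO/R-0 h, 79.5 and 83.6 in MCAO/R-6 h, and 94.9 and 82.5 in MCAO/R-24 h, and the MCAO/R-6 h lists alone lay apart from Sham, below it, by a normal score of -0.24 ± 0.31 (SE) that did not pass the test (limma, adjusted p = 0.875). All of its 28 peaks, in this and 3 smaller regions, were coding, and the long 3' UTR of 1566 nt held none. The count of peaks was 3 and 2 in Sham, 5 and 5 in MCAO/R-0 h, 3 and 2 in MCAO/R-6 h, and 1 and 7 in MCAO/R-24 h. In MCAO/R-24 h the single peak of replicate 1 covered 850 nt of the exons, and the 7 peaks of replicate 2 covered 1025 nt.

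The highest-ranking peaks of Keap1 lay around and after its stop codon. Region 7 (chr9:21141701-21142581) had percentiles of 93.9 and 81.6 in Sham, 92.2 and 90.6 in MCAO/R-0 h, 86.0 and 89.4 in MCAO/R-6 h, and 89.6 and 86.6 in MCAO/R-24 h, and the Sham values enclosed all others. A further 8 regions, spread over both UTRs and the coding sequence, were each in 4 lists or fewer. Of the haem oxygenases, the inducible Hmox1 had 1 peak, at 13.2 in MCAO/R-6 h replicate 1, and the constitutive Hmox2 had 1, at 31.6 in Sham replicate 2.

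**Figure D2:**
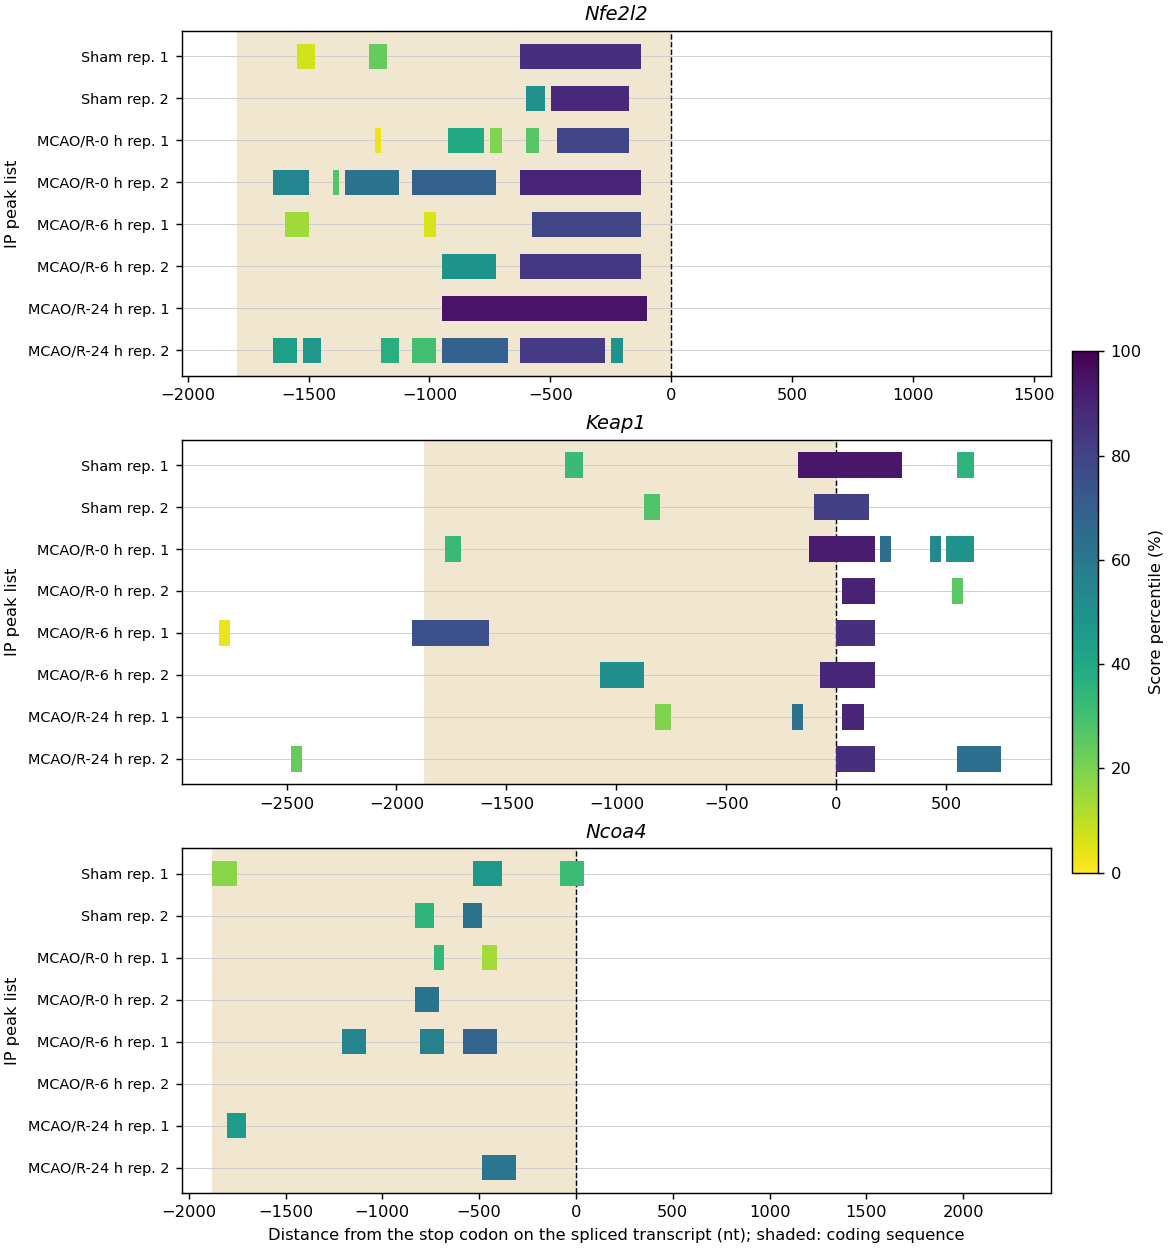
Peaks of Nfe2l2, Keap1 and Ncoa4 in the 8 IP lists, placed by distance from the stop codon on the spliced transcript (nt, dashed line at the stop codon, coding sequence shaded) and coloured by score percentile. The high-ranking peaks stand at the same place in all lists for Nfe2l2 (79.5 to 94.9) and Keap1 (81.6 to 93.9). The highest peak of Ncoa4 in each list that held any ranks lower (34.3 to 68.3), and its most shared region is in 5 lists.

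Bach1 held the most peaks of the 42 genes, 47 in 8 regions. Its lists held 1 and 5 peaks in Sham, 6 and 8 in MCAO/R-0 h, 7 and 7 in MCAO/R-6 h, and 6 and 7 in MCAO/R-24 h. Every MCAO/R list thus held more than either Sham list. The Sham lists covered 150 and 675 nt of its exons. The reperfusion lists covered more, 750 and 825 nt at 0 h, 1350 and 1507 nt at 6 h, and 800 and 1382 nt at 24 h, though MCAO/R-0 h replicate 1 and Sham replicate 2 differed by 1 peak. The 2 Sham lists were the shortest and the fourth shortest of the 8 by total peaks, with 18775 and 20152 against 19072 to 24078 in MCAO/R, and the part of list length in these counts was not tested.

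The coding region 1 of Bach1 (chr16:87515789-87516413) was in all 8 lists, at 30.8 and 64.9 in Sham, 36.7 and 68.1 in MCAO/R-0 h, 75.7 and 90.4 in MCAO/R-6 h, and 50.0 and 86.9 in MCAO/R-24 h. Only the MCAO/R-6 h values lay clear of Sham, by 1.06 ± 0.49 (SE) on the normal score, which did not pass the test (limma, adjusted p = 0.566). The 3' UTR region 7 (chr16:87526731-87527580) was in 7 lists, at 35.2 in Sham replicate 2, 34.8 and 31.4 in MCAO/R-0 h, 61.7 and 89.7 in MCAO/R-6 h, and 71.4 and 69.1 in MCAO/R-24 h. Its values at 6 and 24 h were all above the Sham value, and the MCAO/R-0 h values were just below it.

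Region 4 of Bach1 (chr16:87516739-87519439), in the coding sequence across the junction of exons 3 and 4, was in all 6 MCAO/R lists and in neither Sham list. It stood at percentiles of 14.5 and 20.4 in MCAO/R-0 h, 66.6 and 70.0 in MCAO/R-6 h, and 15.4 and 83.0 in MCAO/R-24 h. The nearest Sham peak, in replicate 2, ended 325 nt upstream. The region is a chain of shorter peaks: the 2 MCAO/R-6 h lists shared 100 nt, but the 2 lists of MCAO/R-0 h and those of MCAO/R-24 h shared 0 nt with each other and were joined through peaks of other lists. Without MCAO/R-6 h replicate 1 the region no longer counted at 0 and 24 h, and without MCAO/R-0 h replicate 2 it no longer counted at 24 h. When 50 shared bases were asked for, or every list was cut to equal length, no member region counted as gained at 24 h. With 50 shared bases the counts at 0 and 6 h stayed at 2 and 3, but rested partly on other regions. The MCAO/R-0 h peaks of Bach1 region 4, with 0 nt shared, then no longer counted, nor did the MCAO/R-6 h peaks of Acsl4 region 2, with 17 nt.

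**Figure D3:**
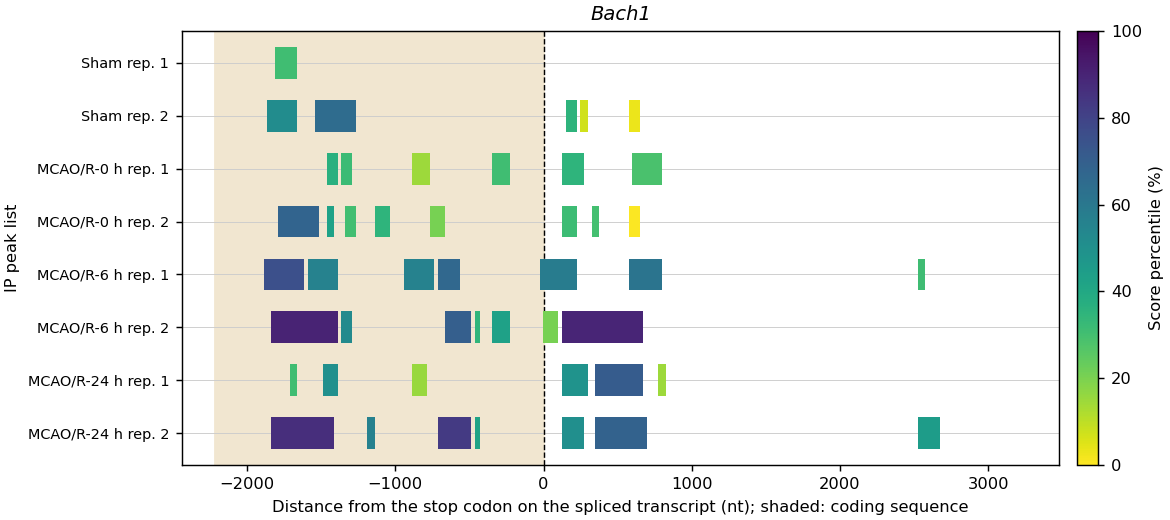
Peaks of Bach1 in the 8 IP lists, placed by distance from the stop codon on the spliced transcript (nt, dashed line at the stop codon, coding sequence shaded) and coloured by score percentile. The stretch between -939 and -490 nt holds peaks in all 6 MCAO/R lists and in neither Sham list, and Sham replicate 1 holds a single peak.

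Presence and absence were compared for all regions in the same way, calling a region gained when it was in both lists of a time and in no Sham list, and lost in the reverse case. With 2 lists against 2, an exact permutation test cannot reach the threshold, so these are counts without a test. In MCAO/R-0 h, 2 of the 67 member regions (2.99%) were gained, against 2.61% of all regions, namely Bach1 region 4 and Cp region 2. In MCAO/R-6 h, 3 (4.48%) were gained, against 3.43%, namely Bach1 region 4, Aifm2 region 3 and Acsl4 region 2. In MCAO/R-24 h, Bach1 region 4 alone (1.49%) was gained, against 2.53%. No member region was lost at 0, 6 or 24 h, where 1.27%, 1.41% and 1.84% of all regions were. Of all 52776 regions, 0.261% were, like Bach1 region 4, in all 6 MCAO/R lists and no Sham list. In both Sham lists and no MCAO/R list were 0.371% of all regions and no member region. The shares of the member regions were near those of all regions at each time.

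Cp, the ferroxidase ceruloplasmin that loads exported iron onto transferrin, had 6 peaks, all in its 3' UTR and all in MCAO/R lists. Cp region 2 (chr3:20061114-20061338) had percentiles of 33.5 and 50.5 in MCAO/R-0 h and 31.3 in MCAO/R-24 h replicate 2, and the MCAO/R-0 h peaks shared 100 nt. In MCAO/R-6 h, replicate 1 held Cp region 1 at 37.2, which MCAO/R-0 h replicate 2 also held, at 52.9. MCAO/R-6 h replicate 2 held Cp region 3 at 10.5.

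Aifm2 codes for FSP1, which regenerates coenzyme Q as a radical trap independently of glutathione. Its region 3 (chr10:61574345-61574918), at the end of the gene, was in both MCAO/R-6 h lists at 63.8 and 64.9 and in MCAO/R-24 h replicate 2 at 45.1, and the MCAO/R-6 h peaks of 175 nt each shared 150 nt. The region held no RRACH site on its transcript with the longest coding sequence, on which only 88 nt of it lie. The other 3 Aifm2 peaks, in MCAO/R-0 h replicate 2 and both MCAO/R-6 h lists, lay lower, at 1.92 to 23.4.

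Acsl4 loads polyunsaturated fatty acids into the lipids that ferroptosis oxidises. Its region 2 (chrX:141103739-141103830), in the coding sequence of the last exon, was in both MCAO/R-6 h lists at 82.2 and 69.8. The exonic part of these peaks was short, 92 and 17 nt, with 17 nt shared. Their whole spans reached chrX:141104833 and chrX:141104783, beyond this exon, and the percentiles are those of the whole peaks. Acsl4 also had a coding peak in MCAO/R-0 h replicate 1 at 41.1 and a 3' UTR peak in MCAO/R-6 h replicate 1 at 46.6. The partner enzyme Lpcat3, which places these fatty acids into phospholipids, was marked in both MCAO/R-0 h lists at 4.19 and 34.3, in MCAO/R-6 h replicate 2 at 20.2 and in MCAO/R-24 h replicate 2 at 66.0, in 2 regions at opposite ends of the transcript.

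Counted by gene, a rule chosen after the lists had been seen, 8 of the 42 genes (19.0%) were marked in MCAO/R lists and in no Sham list, against 14.2% of coding genes, and Hmox2 alone (2.38%) in Sham only, against 1.68%. The 8 genes were Trp53, Gls2, Aifm2, Acsl4, Lpcat3, Cp, Hmox1 and Cisd2. There are 6 MCAO/R lists and 2 Sham lists, so that the first share is larger for all genes too. Aifm2, Lpcat3 and Cp (7.14%) were in 4 or more of the 6 MCAO/R lists, against 2.32% of coding genes. Both lists of a time and no Sham list marked Lpcat3 and Cp in MCAO/R-0 h (4.76% against 1.88%) and Aifm2, Acsl4 and Cp in MCAO/R-6 h (7.14% against 2.48%), but no member in MCAO/R-24 h, where 2.03% of coding genes were. When at least 50 exonic bases in the gene were asked for, 2 genes remained in MCAO/R-6 h, since Acsl4 had 17 in replicate 2. The Cp peaks of the MCAO/R-6 h lists lay in different regions. In the reverse direction Gclm was absent from both MCAO/R-6 h lists (2.38% against 0.767%), and no member from both lists of MCAO/R-0 h or MCAO/R-24 h, against 0.721% and 1.13%. In a set of 42 genes, 1 gene is 2.38%, so apart from the first share, of 8 genes, these shares rest on 3 genes or fewer.

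Trp53, the tumour suppressor p53 that represses Slc7a11, had 2 peaks, both in its 3' UTR and among the lowest of their lists. They were at 5.19 in MCAO/R-0 h replicate 1 (chr11:69482530-69482579) and at 6.93 in MCAO/R-24 h replicate 2 (chr11:69482605-69482679), in neighbouring stretches that did not overlap. Neither stretch held an RRACH site. The glutaminase Gls2, a p53 target, had 1 peak at 3.37 in MCAO/R-6 h replicate 1, and Sat1, another target, had none.

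On the mitochondrial outer membrane, the channel gene Vdac3 had a region just after its stop codon in 6 lists, at 40.3 and 77.0 in Sham, 54.8 in MCAO/R-0 h replicate 1, then 70.3 and 59.1 in MCAO/R-6 h, with 65.5 in MCAO/R-24 h replicate 2. The Sham values enclosed all others. The iron-sulfur protein gene Cisd2, grouped with these genes here, had 1 peak, at 31.7 in MCAO/R-0 h replicate 2, and Vdac2 and Cisd1 had none.

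The score ranks were tested by limma over the 4735 regions found in all 8 lists, with Benjamini-Hochberg adjustment over all of them. At each of 0, 6 and 24 h against Sham, 0 regions (0%) were called, and 315, 442 and 382 regions had an unadjusted p under 0.05. None of the 6 member regions was called, and the smallest adjusted p of a member region was 0.566. Ranking regions found in at least 4 lists, with absent peaks placed below the lowest rank of their list, called 2.13%, 2.75% and 2.96% of 13596 regions at 0, 6 and 24 h. Of the 17 member regions in that fit, Bach1 region 4 alone was called, and at 6 h only. It had entered the fit through its 6 MCAO/R lists and both of its Sham values were imputed, so this call restates its absence from the Sham lists and is no separate test of its rank. The plot of the regions found in all lists shows the spread between replicates that these tests rest on.

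**Figure D4:**
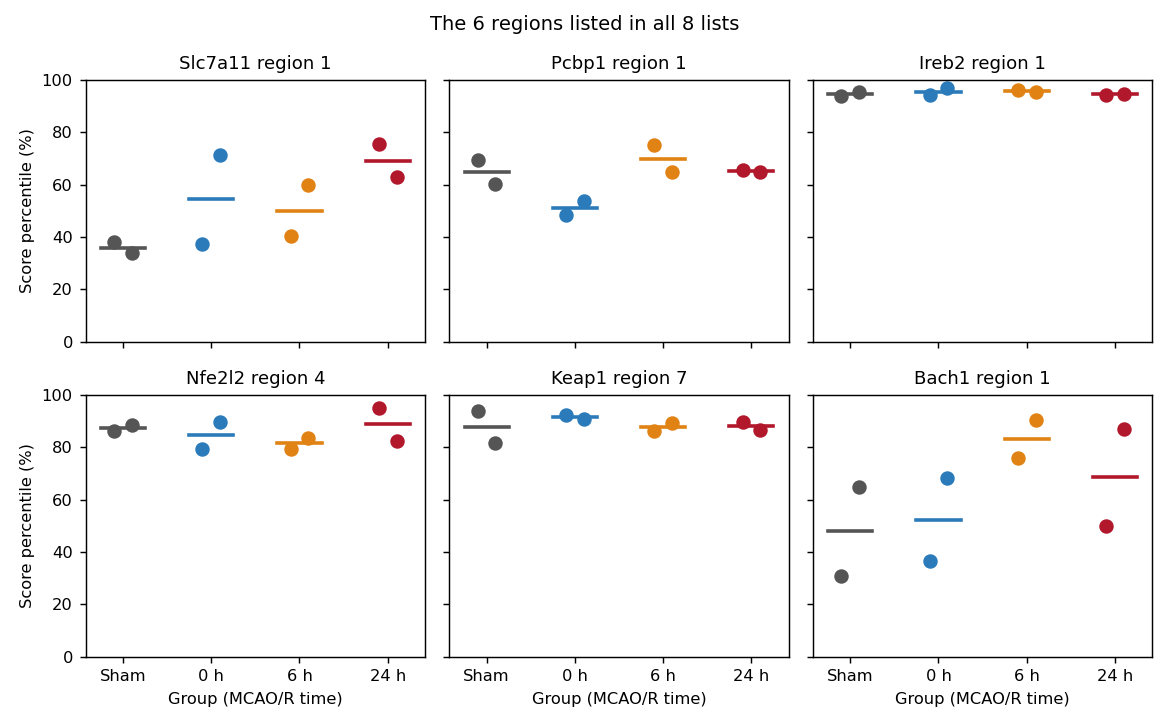
Score percentile (percent of the list with a lower score) of the 6 member regions found in all 8 lists, by group. Points are the 2 lists of a group and bars their mean. Ireb2 stays between 93.8 and 96.9, whereas the replicates of Bach1 region 1 differ by more than 30 in 3 of the 4 groups.

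The number of marked members per list was 13 and 14 in Sham, 14 and 16 in MCAO/R-0 h, 17 and 17 in MCAO/R-6 h, and 10 and 15 in MCAO/R-24 h. As means these were 13.5 ± 0.707, 15.0 ± 1.41, 17 ± 0 and 12.5 ± 3.54 (SD, n = 2 each). Both MCAO/R-6 h lists held more marked members than any other list, and the MCAO/R-24 h replicates spread furthest apart. The share of all coding genes marked was 30.1% and 32.2% in Sham, 32.3% and 36.3% in MCAO/R-0 h, 34.6% and 35.8% in MCAO/R-6 h, and 31.7% and 34.7% in MCAO/R-24 h, and it moved in the same order as the length of the lists within each group.

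**Figure D5:**
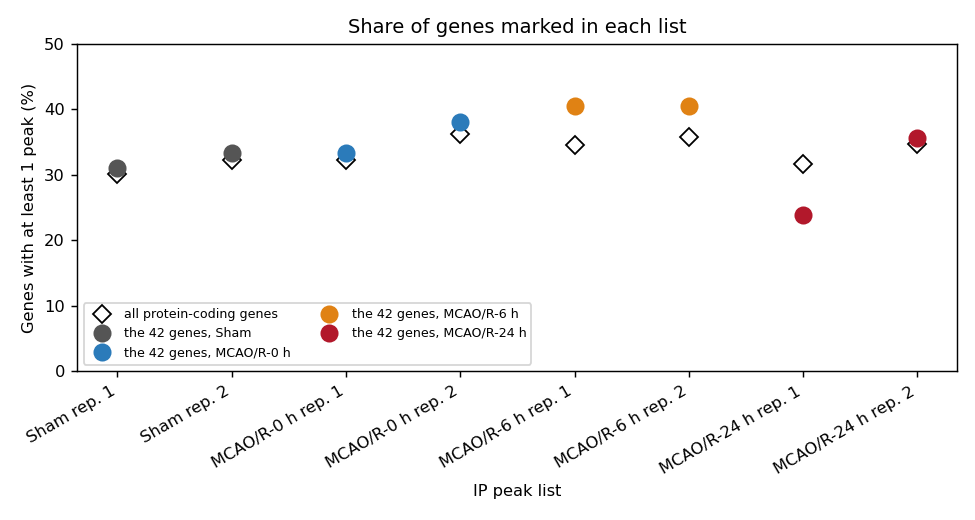
Share of genes with at least 1 peak in each IP list, for the 42 genes (filled circles, coloured by group) and for all protein-coding genes (open diamonds), in percent. The member share is above the share of all genes in 7 lists. Outside MCAO/R-6 h this excess is less than 1 gene of the 42 (2.38%), for example 31.0% against 30.1% in Sham replicate 1. In MCAO/R-6 h the member share is 40.5% in both lists, against 34.6% and 35.8%. It is below the share of all genes in MCAO/R-24 h replicate 1, at 23.8% against 31.7%.

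For comparison, 57 other genes of ferroptosis and redox biology, drawn up by function with earlier results of these data known, were read in the same way. Of these, 37 (64.9%) were marked and 15 were marked in all 8 lists, where 51.8% and 18.5% of all coding genes were. Of their 112 regions, 2, 2 and 1 were gained at 0, 6 and 24 h, against 2.61%, 3.43% and 2.53% of all regions, and 1, 3 and 2 were lost, against 1.27%, 1.41% and 1.84%. The gained regions lay in Acsl6 and Sqstm1 at 0 h, Nfs1 and Chac1 at 6 h and Coq2 at 24 h, and the lost ones in Srxn1 at all 3 times, Bap1 at 6 and 24 h and Dhcr7 at 6 h.

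The tissue label was checked on marker genes, since peaks show only which RNAs were present and methylated. Peaks were found in 6 of 9 neuronal, 5 of 6 astrocyte, 3 of 5 oligodendrocyte, 4 of 5 microglial and 4 of 4 endothelial markers, and in none of 5 markers of infiltrating myeloid cells or 3 of liver. Per list, 3 to 6 of the neuronal, 3 to 4 of the astrocyte, 1 to 3 of the oligodendrocyte and 2 to 4 of the microglial markers had a peak. The endothelial markers with a peak numbered 1 and 2 in Sham, 3 and 4 in MCAO/R-0 h, 2 and 3 in MCAO/R-6 h, and 3 and 3 in MCAO/R-24 h, and the part of this in the peaks described above was not tested. Among the neuronal markers Syt1, Snap25 and Slc17a7 had no peak in any list.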

How the data were processed

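Per the labels and the study's methods, RNA of the peri-infarct cortex was fragmented, to about 100 or 200 nt (the sources differ), part was kept as input and the rest went to the m6A IP. The authors trimmed reads with Trim Galore, aligned them to GRCm39 with HISAT2, filtered them with SAMtools and called peaks with exomePeak2, 1 list per IP library. Beside each peak the authors deposited the score of their peak caller, whose scale is not defined, so it served only as a rank. The lists hold no counts, so depth is unknown and no counting interval can be given. The input libraries were not analysed here.

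Each line gives a whole span, introns included. Exonic parts were rebuilt from basic coding transcripts of GENCODE M39. Peaks sharing at least 1 exonic base were joined into regions, and distances were taken on the longest coding transcript of the gene, or on the next one holding the peak. The rank was the highest percentile of a region in a list. Differences were tested with limma 3.58.1 in R 4.3.3 (two-sided, adjusted p threshold 0.05), and other steps used Python 3.11.15. Joining and testing were tested on simulated data. Nothing states that replicates came from separate mice, so p-values measure the spread between these libraries, which may be technical.

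The members and lists were chosen with earlier results of these data known. Values in every list are given for the members the study speaks of (Trp53, Slc7a11, Gpx4, Ncoa4) and those with a region in all 8 lists. They are also given for members with a gained or lost region and those past the threshold. For members with several regions they cover the main ones, and smaller regions are given in less detail. Others that are given list by list (Gss, Slc39a14, Slc11a2, Lpcat3, Vdac3) were added after their values were seen.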

Additional observations from a re-analysis of the deposited data

How the results depend on the processing

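The number of marked members (25), their mean per list (14.5) and the member regions in all 8 lists (6) changed little except when only the higher-scoring 50% of each list was kept, which by its construction gave 16, 9.0 and 3. Leaving out 1 list gave 23 to 25, 14.1 to 15.1 and 6 to 7. Gained member regions then ranged from 1 to 10 at 0 h, 3 to 13 at 6 h and 0 to 12 at 24 h, and lost ones from 0 to 9, 0 to 9 and 0 to 8, since a group of 1 list calls more by construction. The most (10, 13 and 12) were gained without MCAO/R-0 h replicate 1, MCAO/R-6 h replicate 2 and MCAO/R-24 h replicate 1, and the most lost without Sham replicate 2. At 24 h the count was also 0 without MCAO/R-0 h replicate 2 or MCAO/R-6 h replicate 1, 2 when the higher-scoring 50% was kept, 0 when 50 shared bases were needed to join peaks and 0 with every list cut to equal length. At 0 h the higher-scoring 50% left 0. The cause of these was not tested, apart from the chain of Bach1 peaks described above.

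In the rank test, regions of all genes called at 0, 6 and 24 h numbered 290, 374 and 403 when regions in at least 4 lists were tested, with 1 member region at 6 h, Bach1 region 4, whose Sham values are wholly imputed, so that the call restates its absence from Sham. On the percentile scale they numbered 1, 2 and 0, and without 1 list 0 to 0, 0 to 0 and 0 to 1, the single region being called without MCAO/R-24 h replicate 1 or Sham replicate 2. The differences quoted for Slc7a11 and Bach1 region 1 kept their direction and were not called in any of 13 alternatives each, from 0.69 to 1.04 and from 0.62 to 1.5 without 1 list. Deviations of same-numbered libraries correlated weakly, at 0.041 to 0.084. The main fit did not pair the libraries, and whether same-numbered ones shared a batch or handling was not tested. With the replicate block, 0 regions were called at each time.

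The calls are binary, the depth is unknown, and 2 lists against 2 cannot reach the threshold in an exact permutation test of presence. The gene counts added after the lists had been seen were 2, 2 and 0 at 0, 6 and 24 h with every list cut to equal length, against 2, 3 and 0. Without 1 list they were 2 to 4, 3 to 5 and 0 to 4 gained, and 0 to 2, 1 to 2 and 0 to 3 lost against 0, 1 and 0, with 4 gained at 24 h without MCAO/R-24 h replicate 1.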
